A study of Mus musculus with 9 samples.

Results

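Nonagouti (gene symbol a), Nnt, Glo1 and Wdfy1 are 4 mouse genes at which inbred strains are known to carry different alleles. They were followed in newborn esophagus of p63KO/Villin-Cdx2, p63KO and wild type (WT) mice. Every probe that carried one of these gene names on the array was taken, which gave 10 probes of 41174 and 4 genes of 28101 gene names. Nonagouti had 1 probe, Nnt 4, Glo1 2 and Wdfy1 3. The genes were picked from their values in the 2 comparisons with WT, so those differences are given below as description, without a test. Only the difference between p63KO/Villin-Cdx2 and p63KO was tested. That test uses the same p63-null arrays as the comparisons with WT, so it is not free of the choice. The question behind the choice was whether the higher nonagouti signal and the Nnt difference go with the strain background of the mice.

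All mice were sampled on postnatal day 0. The groups were p63KO/Villin-Cdx2 (2 arrays), in which p63-/- mice also carry Cdx2 as a transgene, which its name ties to the Villin promoter, p63KO (3 arrays), which are p63-/- mice without the transgene, and WT (4 arrays). The labels give C57BL/6J as the background strain of all 9 samples and describe in-house breeding. They do not say how far any line had been crossed to that strain. Samples of a group are labelled as biological replicates, and the labels count 3 with Cdx2, while 2 were analysed here. One label of WT 4 names p63-/-, while its title, genotype and description name WT.

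Each array held Cy5-labelled sample RNA against Cy3-labelled reference RNA from 11 mouse cell lines, and a log2 ratio below is sample over reference. Each genotype lay on its own slide and in its own scan, so the slide and the scan cannot be told apart from the genotype. In the sample channel, 32296 to 35717 spots of an array were well above background, at a median signal of 309.2 to 471.6 intensity units. The number of arrays limits the precision. WT 3 stood apart from the others, with a spread of log2 ratios (SD) of 0.81 against 0.96 to 1.06 on the other 8 arrays. The cell type is labelled epithelium, but the extraction protocol names esophageal tissue. All 5 fibroblast markers and all 4 smooth muscle markers were well above background on every array. The mean log2 sample signal of 4 basal squamous markers was 10 to 11.25 in p63KO/Villin-Cdx2, 10.49 to 10.71 in p63KO and 14.27 to 14.62 in WT, with WT 4 at 14.62. Fewer cells of a type and less RNA per cell cannot be told apart in such samples. Trp63, the gene encoding p63, had log2 ratios of 3.37 and 3.09 in p63KO/Villin-Cdx2, 2.74, 2.73 and 2.73 in p63KO, and 3.53, 3.78, 3.39 and 4.13 in WT. Whether its probe lies in the deleted part of the gene is not given in the sources used here.

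Nonagouti encodes the agouti signalling protein, which is secreted next to pigment cells and blocks the melanocortin receptor Mc1r, so that the cells make yellow instead of black pigment. C57BL/6 mice are homozygous for the nonagouti allele, in which an insertion lowers expression of the gene and leaves the coat black, while strains such as those from which many embryonic stem cells were derived carry an active agouti allele. Nnt encodes the nicotinamide nucleotide transhydrogenase of the inner mitochondrial membrane, which makes NADPH, and C57BL/6J mice are known to lack several internal exons of it. Glo1 encodes glyoxalase I, which detoxifies methylglyoxal together with glutathione, and a duplication of the segment around Glo1 is known in some inbred strains. Wdfy1 encodes an early endosome protein with WD repeats and a FYVE domain, which has been described in Toll-like receptor signalling through TRIF.

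One probe per gene is printed to show which part of the transcript was read. Each was chosen because it lies wholly or mostly within an open reading frame, and capitals mark the first stop codon in the reading frame with the longest run before a stop. Positions are those of the files, in build mm9, and the letters run 5′ to 3′ in the sense of the transcript.
a probe 1, chr2:154871493-154873446, plus strand: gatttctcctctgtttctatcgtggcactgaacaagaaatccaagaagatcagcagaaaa
Nnt probe 2, chr13:120125108-120125167, minus strand: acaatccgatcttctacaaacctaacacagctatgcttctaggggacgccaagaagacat
Glo1 probe 1, chr17:30731070-30731129, minus strand: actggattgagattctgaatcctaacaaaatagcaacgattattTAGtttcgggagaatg
Wdfy1 probe 1, chr1:79723042-79723101, minus strand: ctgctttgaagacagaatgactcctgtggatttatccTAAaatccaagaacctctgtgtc
The 60 bases of the nonagouti probe cover 1954 bases of the genome, so the probe crosses a splice junction. Its frame and that of Nnt probe 2 held no stop. The Glo1 and Wdfy1 probes ended 13 and 20 bases after their stop. Nnt probes 2, 3 and 4 start at positions 3318, 3511 and 3897 of the transcript, near its 3′ end. They lie outside the internal exons known to be missing in C57BL/6J, so they do not show whether that deletion is present.

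The nonagouti signal was present on all 5 arrays of the p63-null genotypes and was not well above background on the 4 WT arrays. Its log2 ratio was 0.93 and 1.24 in p63KO/Villin-Cdx2, 1.29, 1.05 and 1.51 in p63KO, and -0.13, -0.17, -0.02 and -0.20 in WT. The lowest array of the p63-null genotypes lay above the highest WT array. The arrays of both p63-null genotypes overlapped with each other. The array carried this probe in 10 spots, which allowed the signal to be read repeatedly within an array. Of these spots, 20 of 20 in p63KO/Villin-Cdx2, 30 of 30 in p63KO and 1 of 40 in WT were well above background. After subtraction of the local background, single spots read 161 to 399 intensity units in p63KO/Villin-Cdx2, 255 to 628 in p63KO and 2.66 to 67.0 in WT. No spot of a p63-null array read as low as the highest WT spot, which was the single WT spot well above background and lay on WT 2.

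**Figure D1:**
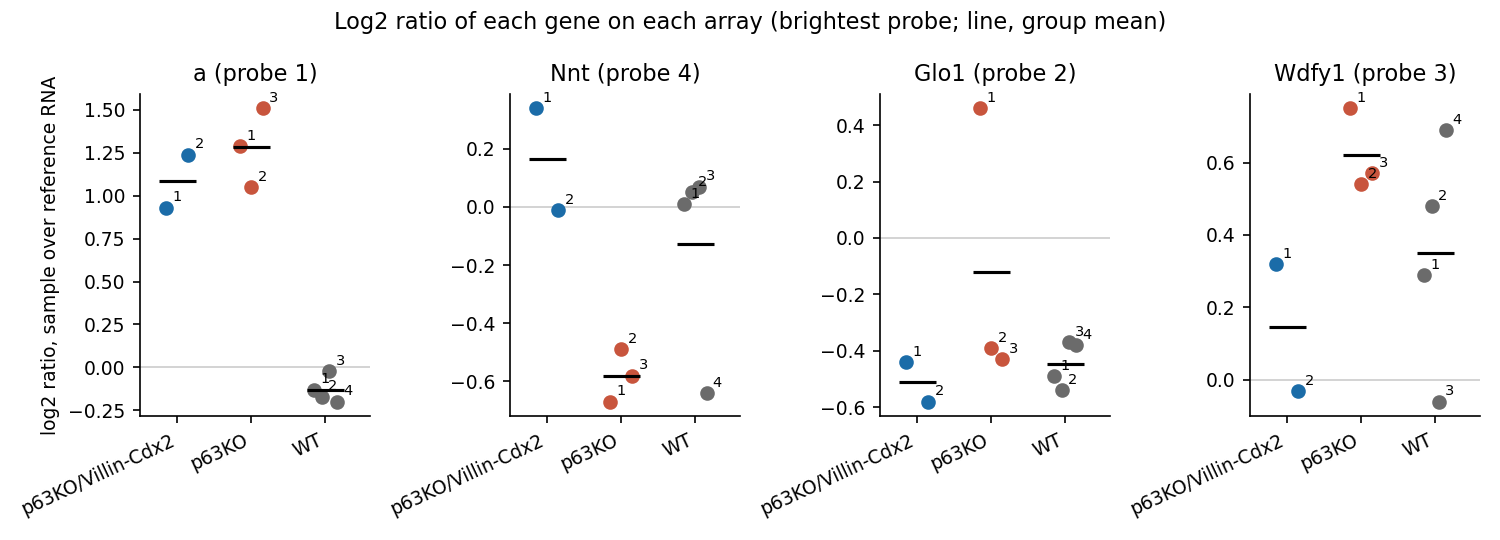
Log2 ratio of sample over reference RNA (vertical axis) for the brightest probe of nonagouti (a), Nnt, Glo1 and Wdfy1. Each point is 1 array with its replicate number, black lines are group means, and groups run from p63KO/Villin-Cdx2 through p63KO to WT; nonagouti separates the p63-null arrays (0.93 to 1.51) from WT (-0.20 to -0.02), WT 4 lies with p63KO in Nnt, and p63KO 1 stands alone in Glo1.

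**Figure D2:**
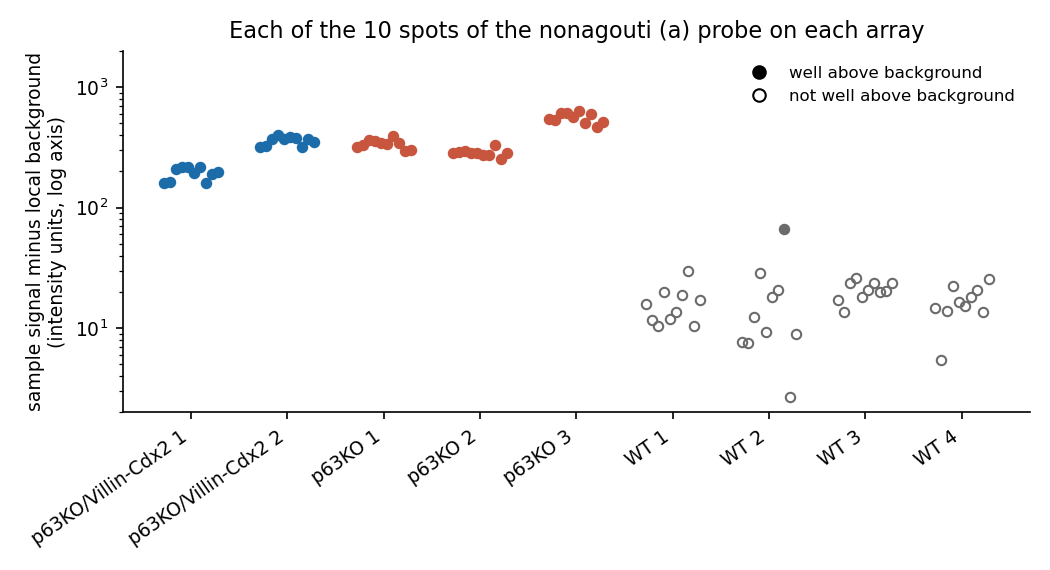
Sample signal minus local background (intensity units, log axis) of each of the 10 spots of the nonagouti probe on each array. Filled points are well above background and open points are not; the p63-null spots run from 161 to 628 and the WT spots from 2.66 to 67.0.

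In the sample channel alone, the normalized log2 signal of nonagouti was 7.81 and 8.40 in p63KO/Villin-Cdx2, 7.97 to 8.79 in p63KO and 6.31 to 6.48 in WT. Each WT array was then set to its own signal or to the dimmest signal still counted as well above background there, whichever was higher. On that footing the mean nonagouti signal was 3.21-fold higher in p63KO/Villin-Cdx2 and 3.81-fold higher in p63KO than in WT. These values come from signals of 1 dye and are open to dye bias. They are not lower bounds, since the log2 ratio gave 2.33-fold and 2.67-fold. The log2 ratio differed by 1.22 (SE 0.14) between p63KO/Villin-Cdx2 and WT and by 1.42 (SE 0.12) between p63KO and WT. With the scanner software's processed signals these differences were 2.83 and 2.90, and with the sample channel alone they were 1.73 and 1.98. The reference channel of the same probe also differed, although the reference RNA was meant to be the same on every array. Its log2 signal was 0.51 higher in p63KO/Villin-Cdx2 than in WT and 0.56 higher in p63KO than in WT, and its net signal was 36.8 to 61.3 intensity units on the p63-null arrays and 23.5 to 28.9 on the WT arrays. Between p63KO/Villin-Cdx2 and p63KO the log2 ratio of nonagouti differed by -0.20 (SE 0.15, 95% interval -0.54 to 0.14), with an adjusted p of 0.628 in limma.

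The mean signals of marker lists for tissues in which nonagouti is normally studied did not separate both p63-null genotypes from WT. Of 5 melanocyte markers, Tyr and Tyrp1, the enzymes of pigment synthesis, were not well above background on any array. The mean log2 sample signal of the melanocyte list was 6.84 to 7.87 in p63KO/Villin-Cdx2, 7.27 to 7.38 in p63KO and 7.11 to 7.27 in WT. Of 5 skin and hair follicle markers, the follicle keratins Krt71 and Krt25 were not well above background on any array, and the list mean was 8.18 to 8.54 in p63KO/Villin-Cdx2, 7.93 to 8.23 in p63KO and 8.27 to 8.47 in WT. The 3 testis markers, from a tissue in which agouti transcripts outside skin are known, had a mean of 7.80 to 7.90, 7.46 to 7.87 and 7.59 to 7.90 in the same order. Their part in the nonagouti signal was not tested.

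The other genes of agouti and melanocortin signalling did not pass the test. Of 22637 genes tested, 1.41% were called between p63KO/Villin-Cdx2 and WT and 0.327% between p63KO and WT, at an adjusted p under 0.05 in limma. Of 11 genes of the agouti and melanocortin list besides nonagouti, 0 were called in either comparison. Their median log2 difference was 0.02 between p63KO/Villin-Cdx2 and WT and 0.09 between p63KO and WT, beside -0.004 and 0.022 over all genes. Mc1r, the receptor that agouti blocks, was well above background on 2 of 2 p63KO/Villin-Cdx2 arrays, 2 of 3 p63KO arrays and 0 of 4 WT arrays. Its log2 ratio stayed between -0.20 and -0.02 on all 9 arrays. Atrn, the attractin co-receptor of agouti, had log2 ratios of 0.57 to 0.61 in p63KO/Villin-Cdx2, 0.59 to 0.71 in p63KO and 0.38 to 0.70 in WT. Corin, a protease of the dermal papilla that limits agouti action, spread from 0.63 to 1.94 in p63KO/Villin-Cdx2, from 1.16 to 1.91 in p63KO and from 0.15 to 1.59 in WT. Mrap, a melanocortin receptor accessory protein with the lowest p of this list, had an adjusted p of 0.644 in limma between p63KO and WT.

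Pigment cell genes and dermal papilla genes had 0 calls as well. At the shares called over all genes, a count of 0 in lists this short, here and below, does not set them apart. Of 21 pigment cell genes tested, 0 were called in either comparison with WT, with medians of 0.00 for p63KO/Villin-Cdx2 and 0.09 for p63KO. Dct, dopachrome tautomerase, had log2 ratios of 0.71 and 3.25 in p63KO/Villin-Cdx2, 2.00, 1.19 and 1.83 in p63KO, and 1.24, 0.58, 1.39 and 1.21 in WT. The highest Dct value belonged to p63KO/Villin-Cdx2 2 and the lowest to WT 2, and the groups overlapped. Edn3 had the lowest p of the pigment cell list between p63KO and WT (adjusted p = 0.673 in limma). Its log2 ratio was 1.93 and 1.42 in p63KO/Villin-Cdx2, 1.88, 2.41 and 1.90 in p63KO, and 1.65, 1.55, 0.29 and 1.78 in WT. Of 11 dermal papilla and hair follicle genes, 0 were called, with medians of -0.16 for p63KO/Villin-Cdx2 and 0.08 for p63KO. Prdm1 had the lowest p of that list between p63KO and WT. Its log2 ratio was -1.35 and -0.54 in p63KO/Villin-Cdx2, -0.35, -0.55 and -0.72 in p63KO, and -0.26 to 0.01 in WT. Its adjusted p in limma was 0.0979 for p63KO/Villin-Cdx2 and 0.635 for p63KO against WT. None of these lists had a called gene between p63KO/Villin-Cdx2 and p63KO either, where 0% of all genes were called, the lowest adjusted p was 0.214, and 2585 genes (11.4%) had an unadjusted p under 0.05.

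Nnt did not follow the genotypes on every array, since WT 4 lay with p63KO in probes 2, 3 and 4. Its brightest probe, probe 4 (chr13:120124529-120124588), had log2 ratios of 0.34 and -0.01 in p63KO/Villin-Cdx2, -0.67, -0.49 and -0.58 in p63KO, and 0.01, 0.05, 0.07 and -0.64 in WT. The 3 p63KO arrays and WT 4 were low, and the other 5 arrays were high with no overlap between the 2 sets. These 2 sets were drawn after the values were seen. Probe 3 gave 0.27 and 0.13 in p63KO/Villin-Cdx2, -0.62, -0.40 and -0.44 in p63KO, and -0.14, -0.16, -0.07 and -0.63 in WT. Probe 2 gave 0.40 and 0.28 in p63KO/Villin-Cdx2, -0.41, -0.17 and -0.35 in p63KO, and -0.09, 0.06, 0.16 and -0.46 in WT. In each of these 3 probes WT 4 was the lowest WT array and both p63KO/Villin-Cdx2 arrays were above all p63KO arrays. The 3 probes read the same transcript on the same arrays and are not independent. The share of all probes with such an order is not given here, so the order does not set Nnt apart.

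Probe 1 of Nnt, taken from a cDNA clone (chr13:120182779-120182837), read a dim signal. It was well above background on 2 of 2 p63KO/Villin-Cdx2 arrays, 3 of 3 p63KO arrays and 3 of 4 WT arrays. Its log2 ratio ranged from -0.21 to -0.12 in p63KO/Villin-Cdx2, from -0.41 to -0.06 in p63KO and from -0.31 to -0.05 in WT, with WT 4 again the lowest WT array. The groups overlapped in this probe.

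The Nnt difference in log2 ratio (probe 4) was 0.29 (SE 0.21) between p63KO/Villin-Cdx2 and WT and -0.45 (SE 0.18) between p63KO and WT. Without WT 4 these were 0.12 and -0.63. Between p63KO/Villin-Cdx2 and p63KO it was 0.74 (SE 0.22, 95% interval 0.24 to 1.25), which did not pass the test (adjusted p = 0.363 in limma). The same difference was 0.65 in probe 2 and 0.69 in probe 3, and both had an adjusted p of 0.343 over all probes. In probe 4, the mean was highest in p63KO/Villin-Cdx2, lower in WT and lowest in p63KO, and the WT arrays overlapped with both. In probes 2 and 3 the order was the same, both p63KO/Villin-Cdx2 arrays lay above every WT array, and WT overlapped with p63KO through WT 4. In the sample channel of probe 4, the normalized log2 signal was 13.06 and 12.69 in p63KO/Villin-Cdx2, 11.91 to 12.11 in p63KO, 12.68 to 12.76 in WT 1 to 3 and 12.03 in WT 4. Its reference channel stayed between 12.58 and 12.72 on all arrays.

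WT 4 lay with WT in the other measures that separate the genotypes. Its nonagouti log2 ratio was -0.20, its Trp63 log2 ratio was 4.13, and Tprg, the neighbour of Trp63, was at 0.96 on WT 4, against -1.93 and -1.53 in p63KO/Villin-Cdx2 and -2.04 to -1.85 in p63KO. The Tprg log2 ratio was 0.54 to 1.01 on the other WT arrays. What sets WT 4 apart in Nnt was not tested.

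**Figure D3:**
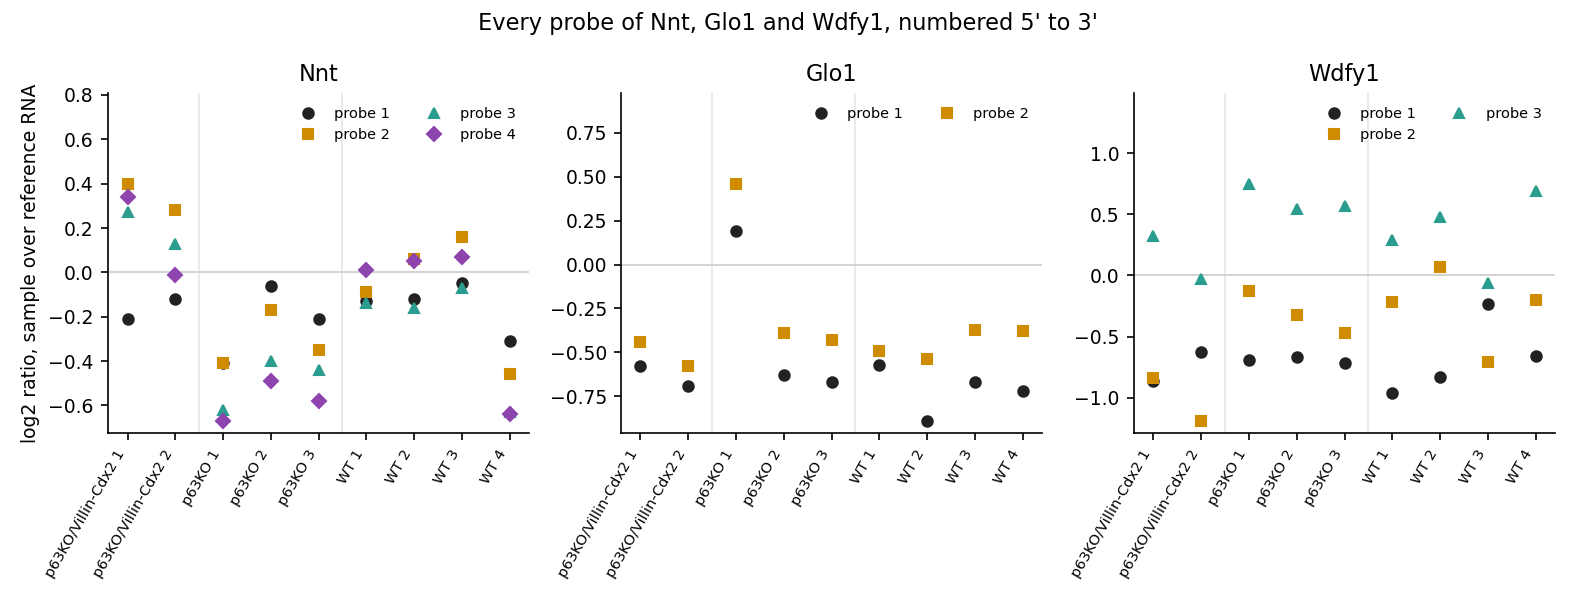
Log2 ratio of sample over reference RNA (vertical axis) of every probe of Nnt, Glo1 and Wdfy1 on each array, with a symbol for each probe and grey lines between p63KO/Villin-Cdx2, p63KO and WT. Values are comparable along 1 probe; WT 4 is low in Nnt probes 2, 3 and 4 (-0.46 to -0.64), p63KO 1 is high in both Glo1 probes (0.19 and 0.46), and the 3 Wdfy1 probes do not run together.

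The genes most like Nnt included 2 on its own chromosome. Likeness was Pearson's r of the log2 ratio over the 9 arrays, among 10108 genes with at least the Nnt spread divided by 2, and the arrays share slides and the reference RNA. Utp15, a factor of ribosomal RNA processing on chromosome 13, had an r of 0.92, with log2 ratios of -0.08 and -0.04 in p63KO/Villin-Cdx2, -0.58, -0.36 and -0.36 in p63KO, and -0.09, -0.15, -0.19 and -0.51 in WT. Tmem267, which lies 160.0 kb from the Nnt probe, had an r of 0.88, with log2 ratios of 0.23 and 0.44 in p63KO/Villin-Cdx2, -0.21, -0.14 and -0.43 in p63KO, and 0.23, 0.48, 0.40 and -0.28 in WT. Both had their lowest WT value on WT 4, within the p63KO range, which the choice by likeness to Nnt favours. The other 3 of the first 5 were AK082956, BC057602 and Zfp599, with r of 0.92, 0.89 and 0.88. None of the 5 was among the first 5 by Spearman's rho. At a limit of r of 0.8, set after the values were seen, 26 genes were like Nnt, and 4 of them (15.4%) lay on chromosome 13, which held 3.84% of the genes compared. These were Utp15, Tmem267, Gm3474 and D930043N17Rik. At the same limit, the share on the member's own chromosome was 3.77% of 53 genes for nonagouti (7.26% of those compared), 3.78% of 185 for Glo1 (4.56%) and 5.76% of 330 for Wdfy1 (6.43%). These shares are a description, with no test. None of the 5 first genes passed the test in any comparison.

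**Figure D4:**
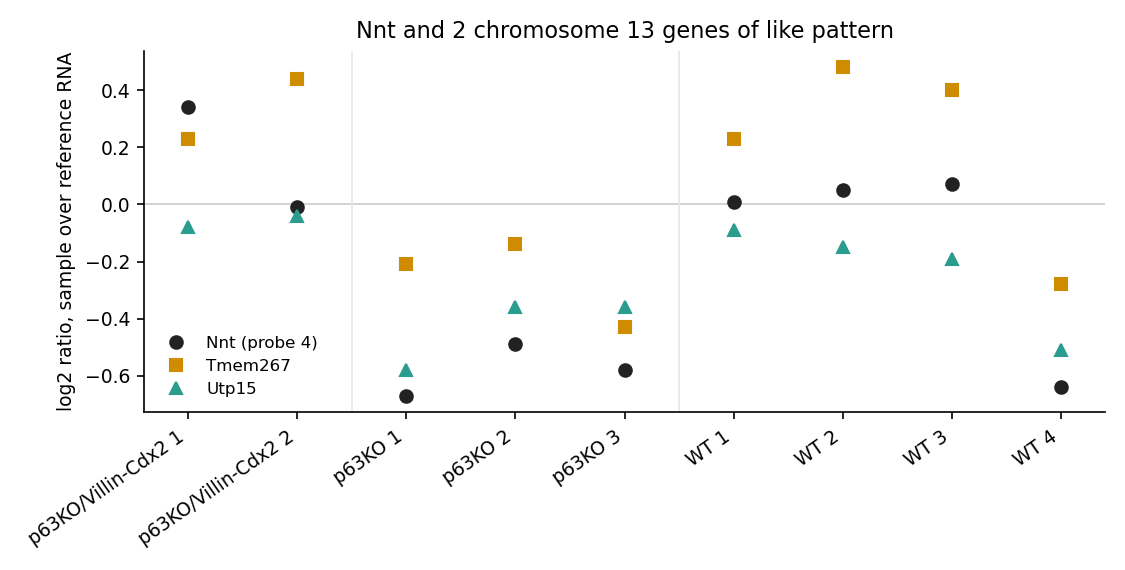
Log2 ratio of sample over reference RNA (vertical axis) of Nnt probe 4 and of Tmem267 and Utp15, the 2 genes on chromosome 13 among the 5 most like Nnt, on each array. In all 3 genes the p63KO arrays and WT 4 are below the other arrays; for WT 4 the values are -0.64, -0.28 and -0.51.

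Of 10 genes tested within 1 Mb of the Nnt probe, 0 were called in any comparison. The share over all genes was 1.41% for p63KO/Villin-Cdx2 against WT, 0.327% for p63KO against WT and 0% for p63KO/Villin-Cdx2 against p63KO, so a count of 0 in lists this short does not set them apart from other genes. The neighbours had median log2 differences of 0.15 between p63KO/Villin-Cdx2 and WT and -0.04 between p63KO and WT. The nearest measured gene on one side, Fgf10, a growth factor of foregut mesenchyme, ranged from 0.49 to 0.50 in p63KO/Villin-Cdx2, 0.18 to 0.49 in p63KO and -0.08 to 0.63 in WT. Of 16 mitochondrial NADPH and redox genes besides Nnt, 0 were called, with medians of 0.05 for p63KO/Villin-Cdx2 and 0.10 for p63KO against WT. Glrx2, a mitochondrial glutaredoxin with the lowest p of that list, had an adjusted p of 0.768 in limma between p63KO and WT.

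Glo1 was high on 1 array of the 9. Probe 2 (chr17:30729951-30730010) had log2 ratios of -0.44 and -0.58 in p63KO/Villin-Cdx2, 0.46, -0.39 and -0.43 in p63KO, and -0.49, -0.54, -0.37 and -0.38 in WT. Probe 1, printed above, had -0.58 and -0.69 in p63KO/Villin-Cdx2, 0.19, -0.63 and -0.67 in p63KO, and -0.57, -0.89, -0.67 and -0.72 in WT. In both probes p63KO 1 was alone above the rest, by 0.91 in probe 2 and 0.87 in probe 1 against the mean of the other 8 arrays. Before normalization, the net sample signal of p63KO 1 in probe 2 was 29300 intensity units, against 17600 and 18800 on the other p63KO arrays. It was 15300 and 12500 in p63KO/Villin-Cdx2 and 10500 to 13900 in WT. The normalized log2 sample signal was 14.42 on p63KO 1 and 13.56 and 13.53 on the other p63KO arrays. This signal was 13.44 and 13.19 in p63KO/Villin-Cdx2 and 13.28 to 13.51 in WT.

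The log2 difference of Glo1 (probe 2) was -0.07 (SE 0.23) between p63KO/Villin-Cdx2 and WT and 0.33 (SE 0.20) between p63KO and WT. Without p63KO 1 the second value was 0.03. Between p63KO/Villin-Cdx2 and p63KO it was -0.39 (SE 0.24, 95% interval -0.95 to 0.16; adjusted p = 0.561 in limma). With p63KO 1 left aside, the WT range of -0.54 to -0.37 overlapped with both p63-null genotypes, so none of them stood clear of WT.

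A probe of Btbd9 near Glo1 showed the same array apart, and was picked after its values were seen. Btbd9 encodes a BTB domain protein, and this probe starts at chr17:30650529, which is 79.4 kb from Glo1 probe 2. Its log2 ratio was -1.75 and -1.81 in p63KO/Villin-Cdx2, 0.27, -1.75 and -2.0 in p63KO, and -1.68, -1.97, -1.42 and -2.02 in WT. p63KO 1 was thus 2.07 above the mean of the other arrays. Of 36 kept probes of other genes within 1 Mb of Glo1, this was the 1 in which p63KO 1 exceeded every other array by more than 0.5. Over all 33692 kept probes with a value on every array, p63KO 1 did so in 278 (0.825%), and the other arrays did so in 258 and 249 probes in p63KO/Villin-Cdx2, 15 and 29 in p63KO, and 313, 9, 290 and 18 in WT. The other 2 Btbd9 probes, which lie 305.8 and 375.2 kb from Glo1 on the same side, were 0.13 above that mean each and did not exceed the highest of the other arrays. Between Btbd9 and Glo1, the probe of 0710001D07Rik read 0.67 on p63KO 1 and 0.14 to 0.55 on the other arrays. By smaller gaps, p63KO 1 was also above all other arrays in 2 Ndufv3 probes, 934.7 and 935.2 kb from Glo1 (0.02 against -0.60 to -0.25, and 0.19 against -0.50 to -0.10). The same held for a Cmtr1 probe at 887.3 kb (0.31 against 0.02 to 0.12) and, narrowly, the Ndufv3 probe at 928.6 kb (0.29 against -0.06 to 0.28). It also held for Tff2 (2.58 against 0.40 to 2.46) and Slc37a1 (1.00 against -0.02 to 0.90). The Dnah8 probe at 282.1 kb read 0.62 on p63KO 1 and -0.51 to 0.61 elsewhere.

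**Figure D5:**
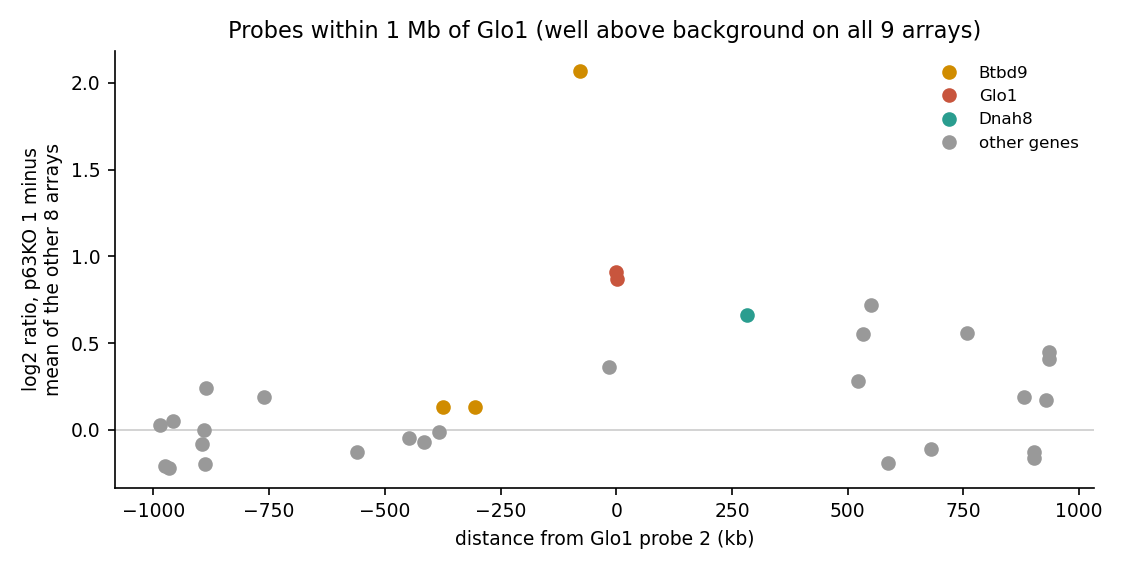
Log2 ratio of p63KO 1 minus the mean of the other 8 arrays (vertical axis) for probes within 1 Mb of Glo1 that were well above background on all 9 arrays, by distance from Glo1 probe 2 in kb (horizontal axis). Both Glo1 probes (0.91 and 0.87) and the nearest Btbd9 probe (2.07) lie above the other probes shown, which reach 0.72. The Tff1 probe at 568.5 kb, well above background on 8 arrays, is not shown. Its value was 1.19, and WT 1 was above p63KO 1 in it (2.85 against 2.80).

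The genes most like Glo1 were those that were also high on p63KO 1. The first 5, among 12776 compared over the 9 arrays, were Tat of liver, Ctrb1, Try5 and Prss2 of the exocrine pancreas, and Ifitm5 of bone, with r of 0.98 to 0.99. Each was highest on p63KO 1, which the choice by likeness to Glo1 fixes. Prss2, for example, had a log2 ratio of 2.32 on p63KO 1, 0.06 and -0.12 on the other p63KO arrays, -0.20 and -0.06 in p63KO/Villin-Cdx2, and -0.08 to -0.01 in WT. Of 5 adipocyte markers, all were well above background on every p63KO and WT array and 3 on every p63KO/Villin-Cdx2 array. Their mean log2 sample signal was 14.87 on p63KO 1, 10.08 and 11.07 on the other p63KO arrays, 9.26 and 10.78 in p63KO/Villin-Cdx2, and 9.60 to 11.26 in WT. Their part in the Glo1 value was not tested. Such an r over 9 arrays rests on the single array p63KO 1, and none of the 5 genes was among the first 5 by Spearman's rho.

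Among 29 genes tested within 1 Mb of Glo1, 1 was called, and it was higher in p63KO/Villin-Cdx2 than in WT. This was Dnah8, an axonemal dynein heavy chain, which was also the 1 gene called of 15 genes with known allelic variants among inbred strains. Its log2 ratio was 0.44 and 0.61 in p63KO/Villin-Cdx2, 0.62, 0.30 and -0.05 in p63KO, and -0.51, -0.35, -0.43 and -0.39 in WT. The p63KO/Villin-Cdx2 and p63KO arrays lay above all WT arrays. The Dnah8 probes at 148.3 and 222.9 kb from Glo1 were well above background on 0 of 9 arrays. Dnah8 thus took the value of its probe at 282.1 kb. The log2 difference was 0.94 between p63KO/Villin-Cdx2 and WT (adjusted p = 0.0445 in limma) and 0.71 between p63KO and WT (adjusted p = 0.155). The first call was lost when any 1 of the WT arrays, p63KO 2 or either p63KO/Villin-Cdx2 array was left out (adjusted p of 0.0554 to 0.115 in limma). Of all genes, 0.437% were called higher in that comparison. The median log2 difference of the 15 genes was -0.06 between p63KO/Villin-Cdx2 and WT and 0.12 between p63KO and WT. Of 10 glyoxalase and glutathione genes besides Glo1, 0 were called, with medians of 0.05 and 0.05. Gclc, the catalytic subunit of glutamate-cysteine ligase, had the lowest p of these. Its log2 ratio was -0.08 and 0.03 in p63KO/Villin-Cdx2, -0.07, -0.07 and -0.15 in p63KO, and -0.43, -0.60, -0.49 and -0.38 in WT, with adjusted p of 0.0509 for p63KO/Villin-Cdx2 and 0.147 for p63KO against WT in limma.

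The probes of Wdfy1 differed from each other in how they varied across arrays. Probe 3 (chr1:79700817-79700876), the brightest, had log2 ratios of 0.32 and -0.03 in p63KO/Villin-Cdx2, 0.75, 0.54 and 0.57 in p63KO, and 0.29, 0.48, -0.06 and 0.69 in WT. Probe 2 (chr1:79701982-79702041) had -0.84 and -1.19 in p63KO/Villin-Cdx2, -0.13, -0.32 and -0.47 in p63KO, and -0.22, 0.07, -0.71 and -0.20 in WT. In both, the p63KO/Villin-Cdx2 arrays lay below the p63KO arrays and WT 3 was the lowest WT array. Probe 1, printed above and assigned to another transcript record of the gene, had -0.86 and -0.63 in p63KO/Villin-Cdx2, -0.69, -0.67 and -0.72 in p63KO, and -0.96, -0.83, -0.23 and -0.66 in WT. Here WT 3 was the highest array and the groups overlapped.

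The log2 difference of Wdfy1 in probe 3 was -0.20 (SE 0.20) between p63KO/Villin-Cdx2 and WT and 0.27 (SE 0.18) between p63KO and WT. In probe 2 these were -0.75 (SE 0.21) and -0.04 (SE 0.18), and in probe 1 they were -0.08 (SE 0.18) and -0.02 (SE 0.16). Without WT 3, the probe 3 value between p63KO and WT was 0.13. Between p63KO/Villin-Cdx2 and p63KO the difference was -0.47 in probe 3 (SE 0.21, 95% interval -0.95 to 0.01; adjusted p = 0.444 in limma), and it was -0.71 in probe 2 and -0.06 in probe 1. In probe 3 the order of the group means was p63KO, WT and p63KO/Villin-Cdx2, and each overlapped with the next. In probe 2 both p63KO/Villin-Cdx2 arrays (-0.84 and -1.19) lay below every other array, the lowest of which was WT 3 (-0.71). The probe 2 difference from p63KO did not pass the test (adjusted p = 0.353 in limma, over all probes).

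The 5 genes most like Wdfy1 among 13895 compared were Tead4, Megf10, Adam33, Rtl8c and Scube2, with r of 0.96 to 0.98, on chromosomes 6, 18, 2, X and 7. None of these 5 lies on chromosome 1 with Wdfy1, where 19 of the 330 genes with r of 0.8 or more lay. Scube2, for example, had log2 ratios of 1.20 and 0.92 in p63KO/Villin-Cdx2, 1.70 to 2.18 in p63KO, and 0.76 on WT 3 with 1.54 to 1.81 on the other WT arrays. WT 3 was the lowest WT array in all 5, which the choice by likeness to Wdfy1 favours. None of the 5 genes was among the first 5 by Spearman's rho. Of 14 genes within 1 Mb of Wdfy1, 0 were called in any comparison, and of 15 early endosome and TRIF pathway genes besides Wdfy1, 0 were called. Their medians against WT were -0.04 for p63KO/Villin-Cdx2 and 0.07 for p63KO. Wdfy3, a larger FYVE domain protein of autophagy with the lowest p of the list, had an adjusted p of 0.702 in limma between p63KO and WT.

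The 5 genes most like nonagouti lay on other chromosomes, while 2 of the 53 genes with r of 0.8 or more lay on chromosome 2 with it. Among 3510 genes compared, the 5 were Ms4a3 and Ctsg, genes of granulocyte precursors, Kcnj1, a potassium channel, Slc14a1, a urea transporter, and Slc35d3, a nucleotide sugar transporter family member, with r of 0.94 to 0.96. The choice by likeness to nonagouti favours genes that split the p63-null arrays from WT. Between p63KO and WT, where 0.327% of all genes were called, Slc14a1, Kcnj1, Ctsg and Ms4a3 were called (adjusted p of 0.00267 to 0.0137 in limma). Slc35d3 was not (adjusted p = 0.185 in limma). These calls are no support for nonagouti, since that choice favours them. None of these 5 was among the first 5 by Spearman's rho. Slc14a1 had log2 ratios of 0.27 and -0.14 in p63KO/Villin-Cdx2, 0.90, 0.72 and 0.52 in p63KO, and -1.92 to -1.14 in WT. Kcnj1 had 0.58 and 0.87 in p63KO/Villin-Cdx2, 1.26, 1.07 and 1.43 in p63KO, and 0.03 to 0.18 in WT. Its probe was well above background on 1 of 4 WT arrays. Slc35d3 had 0.47 and 1.04 in p63KO/Villin-Cdx2, 0.48, 0.43 and 0.96 in p63KO, and -0.18 to -0.06 in WT. Of 46 genes tested within 1 Mb of the nonagouti probe, 0 were called in any comparison. Their median log2 difference was -0.14 between p63KO/Villin-Cdx2 and WT and 0.01 between p63KO and WT. The nearest measured genes, Eif2s2 on one side and Itch on the other, had log2 ratios of -0.53 and -0.42 and of 0.28 and 0.35 in p63KO/Villin-Cdx2. In p63KO these were -0.68 to -0.54 and 0.53 to 0.64, and in WT they were -0.72 to -0.59 and 0.37 to 0.59.

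Whether the split of the arrays in any of the 4 genes follows the strain background of single mice was not tested, since the labels give the same strain for all samples and no genotype outside Trp63 and the transgene.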

How the data were processed

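Sample and reference mean intensities and local background intensities per spot were as deposited, written by Agilent Feature Extraction 10.7.3.1 per the file headers (version 9.1 per the submitters' processing notes). The log10 ratio that the software wrote is deposited in the same files. The authors' deposited value table holds log2 ratios, which equal the scanner's processed ratios on each array, with column medians of -0.212 to -0.0292; it was used as an alternative. No dye swap was made.

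Background was corrected by normexp (offset 50), ratios were normalized by loess within arrays with control and outlier spots at weight 0, spots were averaged per probe, and no scaling between arrays was applied. Channel signals were taken after Aquantile. A probe was kept if its sample signal was well above background on 2 or more of the 9 arrays (33725 probes), and a gene took the value of its brightest probe (22637 genes). Of 41174 probes, 27027 were named by accession and 5807 by symbol through a RefSeq table (GRCm38.p6, names only), and 8340 kept the file's name. Differences come from limma 3.58.1 in R 4.3.3 (1 model, 9 arrays, 3 genotypes, eBayes), with Benjamini-Hochberg adjustment over all genes at 0.05. The fit was tested on simulated data.

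The members and lists were chosen with earlier results of these data known. Genes named are all members by every probe, Trp63, the called genes of each list (or the one of lowest p), Mc1r, Tyr, Dct, Atrn and Corin, called and nearest genes within 1 Mb of each member, and the 5 genes of highest Pearson r with each member. Replicate numbers did not pair the samples: the correlation of same-numbered deviations was -0.133 to 0.188 over 7 pairs. The alternatives were 12 other settings and the omission of each of the 9 arrays.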

Additional observations from a re-analysis of the deposited data

Results flagged for a closer look

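Within WT, the 4 arrays were checked for a single distant array in each kept probe of the members and in each other named gene, 52 checks in all. Chance alone marks about 1 in 20 of such groups, and 5 were marked here. WT 4 was distant in Nnt probe 4, with a log2 ratio of -0.64 against 0.01 to 0.07 on the other WT arrays, and in Nnt probe 3, with -0.63 against -0.16 to -0.07. WT 4 was also distant in Zfp599, one of the genes most like Nnt, with -0.69 against -0.37 to -0.32. WT 3 was distant in Edn3, a ligand needed by pigment cell and enteric neural precursors, with 0.29 against 1.55 to 1.78. WT 3 was distant as well in Ifitm5, one of the genes most like Glo1, with -0.05 against -0.29 to -0.28. The probes of Nnt read the same transcript and are not independent of each other. Zfp599 was chosen for its likeness to Nnt, which favours a low WT 4, so it is not independent of them either. Groups of 2 and 3 arrays were not checked.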

How the results depend on the processing

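The differences of the 4 members between p63KO/Villin-Cdx2 and p63KO kept their direction and missed the threshold under the 12 other settings and with each array left out in turn, except that nonagouti has no value where probes had to be well above background on all 9 arrays, with adjusted p from 0.145 to 0.986. Against WT, the nonagouti difference stayed between 1.06 and 2.90 and the direction of no member turned beyond its spread. Over all genes, the counts moved. Called genes between p63KO and WT numbered 74, and 133 with the scanner's processed signals and with the authors' table, 392 in the sample channel, 115 in a fit of only those 2 groups, 217 with array weights, and 21 to 121 with 1 array left out. Between p63KO/Villin-Cdx2 and WT there were 319, and 163 with median centring, 93 with scaling between arrays, 548 in the sample channel, 541 with a trended and robust prior, 50 in a fit of only those 2 groups, and 58 to 370 with 1 array left out. Between p63KO/Villin-Cdx2 and p63KO there were 0, and 4 with the processed signals and the authors' table, 51 in the sample channel, 1 with the trended prior, and 0 to 36 with 1 array left out. With the replicate number as a block, 9 genes were called between p63KO and WT and 8 between p63KO/Villin-Cdx2 and WT. Of 8 arrays, 4 correlated best with an array of their own number, which does not settle whether the numbers pair the samples. Dnah8, the single call near Glo1 and among strain variants, gave 0 instead of 1 with scaling, array weights and the block, and 0 to 1 with 1 array left out; it was 1 between p63KO and WT in the sample channel. Lists with 0 calls gave 1 for p63KO/Villin-Cdx2 against WT in pigment cell genes (processed signals, authors' table, sample channel; 0 to 1 with 1 array left out), in dermal papilla genes (sample channel; 0 to 1 with 1 array left out, also against p63KO) and in glyoxalase genes (no filter on dim probes, trended prior). Near nonagouti, 1 gene was called with the mean of a gene's probes and with the trended prior. Within 5 Mb, 2 of 165 genes were called near nonagouti, 5 of 302 near Glo1 and 3 of 78 near Wdfy1 for p63KO/Villin-Cdx2 against WT (1.41% of all genes), and 1 of 78 near Wdfy1 for p63KO (0.327%). Signal over background limits nonagouti in WT and Nnt probe 1.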
